A study of Homo sapiens with 6 samples.

Results

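Receptors for interleukins on T cells were examined in H9 cells treated with AZD4573, a selective CDK9 inhibitor, or with vehicle (DMSO). The 10 genes were taken by name, not by a threshold on their counts, from the 61541 genes of the count table: IL2RA, IL2RB, IL2RG, IL4R, IL7R, IL15RA, IL21R, IL10RA, IL6ST and IL27RA. Earlier results of these data were known when they were chosen. H9 is an established CTCL cell line, a clone of the HUT 78 line, and it is labelled here as wild type. Poly(A) RNA of 3 libraries per group was sequenced, and the AZD4573 libraries were labelled with an exposure of 4 h, whereas the dose (50 nM) is not in the labels and those of the DMSO libraries give no time. The question was how inhibition of the kinase that releases paused RNA polymerase II (RNAP2) altered the transcripts that make these cells responsive to cytokines. Nothing in the labels says whether the libraries of a group came from separate cultures, so p-values measure only the spread between these libraries, and the line is 1 clone.

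Cytokine receptors have no enzymatic activity of their own. Binding of a cytokine brings receptor chains together, and the JAK kinases bound to their tails phosphorylate STAT transcription factors. The common gamma chain (IL2RG) is shared by the receptors for IL-2, IL-4, IL-7, IL-9, IL-15 and IL-21, each of which adds its own chain, and loss of this chain causes severe combined immunodeficiency. IL2RB is shared by the IL-2 and IL-15 receptors, whose alpha chains (IL2RA, also known as CD25, and IL15RA) bind the cytokine but signal little on their own. IL10RA is the ligand-binding chain of the IL-10 receptor, and IL6ST (gp130) is the signalling chain shared by receptors for IL-6, IL-11, LIF, oncostatin M and IL-27, the last of these together with IL27RA.

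Total counts ranged from 70367303 to 76571157 with DMSO and from 52101868 to 63795185 with AZD4573. A count of 0, taken to allow up to 3 counts of the total, limits a level to between 0.0392 and 0.0576 counts per 1000000 (CPM), for counting error only. Of 13 T-cell markers, 3 (CD2, CD7 and CD8A) stayed under 1 CPM in every library. The 13 together summed to between 1390 and 1400 normalised CPM with DMSO and between 1509 and 1554 with AZD4573. Of 16 markers of other cell types, 12 stayed under 1 CPM and 3, NCR1 and HBB among them, had no counts at all, but EPCAM, an epithelial marker, and CD79A, a B-cell marker, were present. EPCAM was at 149 to 167 normalised CPM with DMSO and 132 to 136 with AZD4573, and CD79A at 55.0 to 60.9 and 88.5 to 98.4. COL1A1 of fibroblasts went from 6.31 to 3.91 normalised CPM on average, and the myeloid marker MPO had 0 counts with DMSO and 41 to 82 with AZD4573. The sum of the 16 was between 211 and 234 with DMSO and between 232 and 240 with AZD4573. The part of these markers in the receptor results was not tested.

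The receptor genes are spread over 7 chromosomes of GRCh38, and 2 pairs are neighbours with no other protein-coding gene between them in GENCODE release 44. IL15RA (ENSG00000134470) and IL2RA (ENSG00000134460) lie 32.5 kb apart on chromosome 10, from 5943639 to 5978187 and from 6010689 to 6062370. IL4R (ENSG00000077238) and IL21R (ENSG00000103522) lie 37.4 kb apart on chromosome 16, from 27313668 to 27364778 and from 27402174 to 27452042. The other genes are IL2RG (ENSG00000147168) on chromosome X from 71107404 to 71112108, IL2RB (ENSG00000100385) on chromosome 22 from 37118666 to 37175118 and IL7R (ENSG00000168685) on chromosome 5 from 35852695 to 35879603. IL6ST (ENSG00000134352) lies on chromosome 5 from 55935095 to 55995022, IL10RA (ENSG00000110324) on chromosome 11 from 117986370 to 118003037 and IL27RA (ENSG00000104998) on chromosome 19 from 14031762 to 14053218.

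Promoter windows from RefSeq (GRCh38.p14, 250 bases before to 50 bases after a start site) were found for 9 of the 10 genes, all but IL2RB. IL4R held 42 CpG dinucleotides and IL6ST 36, against 4 in IL2RG and 0 in IL7R, where the median of all 35116 windows was 14. Because the study concerns GATA-3, the windows were searched on both strands for the 4 forms of the GATA motif (AGATAA or AGATAG, and likewise TGATAA or TGATAG). A match was found in 3 of the 9 genes, each in its only window, and 25% of all windows hold at least 1. IL15RA had 4 windows, none with a GATA match, so a count of genes and a share of windows differ in unit. The match begins at position -36 from the RefSeq start site in IL7R, at -164 in IL10RA and at 1, the first base from that start, in IL21R. In these 3 genes the whole window lies inside the GENCODE gene, downstream of its first base, as it does in IL2RG and IL4R. Which start sites H9 cells use was not tested. The ETS motif CCGGAAG, present in 10.3% of all windows, occurred only in IL2RG of the 9 genes, where it begins at -68. The GC box GGGCGG, present in 45% of all windows, occurred in IL4R, IL15RA, IL6ST and IL27RA. The TATA motif TATAAA, present in 11.5% of all windows, occurred in IL2RG and IL7R. No match of 1 motif shared a base with a match of another. These are matches of letters and were not tested for binding.

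Below are the windows of the gene with the largest rise, of the gene that rose less, and of 3 of the genes that fell most so that the motifs can be read in place. Of these, 4 were alike in G and C content (44.3% to 51.0%) and poor in CpG (0 to 4), whereas IL6ST had 72.7% and 36. Each is written 5′ to 3′ on the strand of the gene. Capitals mark the ETS motif in IL2RG (chrX:71111528-71111827, minus strand), the GATA motif in IL21R (chr16:27427021-27427320, plus strand), IL7R (chr5:35856641-35856940, plus strand) and IL10RA (chr11:117989695-117989994, plus strand), and the GC boxes of either strand in IL6ST (chr5:55994914-55995213, minus strand).
IL2RG: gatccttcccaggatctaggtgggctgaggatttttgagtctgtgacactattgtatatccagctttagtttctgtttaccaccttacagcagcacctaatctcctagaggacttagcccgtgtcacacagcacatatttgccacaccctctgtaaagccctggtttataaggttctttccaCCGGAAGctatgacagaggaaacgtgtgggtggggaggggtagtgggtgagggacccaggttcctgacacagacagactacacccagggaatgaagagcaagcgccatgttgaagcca
IL21R: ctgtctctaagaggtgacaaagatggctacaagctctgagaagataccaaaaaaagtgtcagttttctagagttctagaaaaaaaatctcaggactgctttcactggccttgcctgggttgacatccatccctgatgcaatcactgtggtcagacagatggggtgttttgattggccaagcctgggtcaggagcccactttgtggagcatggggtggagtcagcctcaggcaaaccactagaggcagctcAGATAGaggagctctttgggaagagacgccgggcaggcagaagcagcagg
IL7R: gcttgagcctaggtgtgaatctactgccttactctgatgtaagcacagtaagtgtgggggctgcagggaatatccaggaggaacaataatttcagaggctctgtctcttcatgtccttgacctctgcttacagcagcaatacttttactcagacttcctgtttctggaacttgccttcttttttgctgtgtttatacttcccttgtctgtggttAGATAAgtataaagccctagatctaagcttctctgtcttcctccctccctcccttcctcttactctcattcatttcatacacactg
IL10RA: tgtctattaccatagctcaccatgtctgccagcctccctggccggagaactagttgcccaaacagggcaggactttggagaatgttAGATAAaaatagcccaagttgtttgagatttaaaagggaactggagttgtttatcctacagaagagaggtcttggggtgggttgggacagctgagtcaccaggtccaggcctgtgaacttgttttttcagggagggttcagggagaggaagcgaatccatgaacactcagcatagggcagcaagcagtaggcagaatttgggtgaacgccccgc
IL6ST: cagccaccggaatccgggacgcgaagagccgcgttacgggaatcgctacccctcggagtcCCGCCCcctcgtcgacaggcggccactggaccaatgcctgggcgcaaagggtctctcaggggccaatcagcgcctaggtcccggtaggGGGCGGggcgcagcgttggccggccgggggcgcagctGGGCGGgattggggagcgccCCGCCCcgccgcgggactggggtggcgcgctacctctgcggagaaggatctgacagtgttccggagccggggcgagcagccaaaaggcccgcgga

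Upon AZD4573 treatment the receptor transcripts did not move as a group. With libraries normalised by TMM, which holds the bulk of genes level between libraries, 6 genes fell (IL7R, IL6ST, IL10RA, IL27RA, IL2RB and IL15RA), 2 rose (IL2RG and IL21R) and 2 did not pass the test (IL2RA and IL4R). The 2 rises turned into falls when libraries were scaled to the 13 mitochondrially encoded mRNAs, whose synthesis does not depend on RNAP2. A gene passed at a p under 0.05 by the quasi-likelihood test of edgeR, adjusted by Benjamini-Hochberg over the 17678 genes tested, and all 10 receptor genes were among those tested. IL7R entered the test only through its DMSO counts. By this test, 74.7% of all genes passed, 37.4% lower and 37.3% higher, so that 6 lower and 2 higher of 10 must be read against a transcriptome in which most genes shifted. A call also required a 1.5-fold change or more, which 46.4% of all genes met. So 4 receptor genes were called lower (23.7% of all genes) and 0 were called higher (22.7%), the latter because IL2RG reached 1.48-fold and IL21R 1.27-fold. With a 2-fold change required, IL7R and IL6ST were called lower (13.9% of all genes) and 0 were called higher (15%). Library by library, the groups did not overlap for 8 receptor genes (77.8% of all genes tested), 6 lower with AZD4573 (38.7%) and 2 higher (39%). The median log2 fold change was -0.42 over the 10 genes and 0.03 over all genes tested. Fewer cells with a transcript and less of it per cell cannot be told apart in bulk RNA.

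IL2RG, the chain on which most of the others depend, was the most abundant receptor transcript and the one with the largest rise, except that it was lower by mitochondrial scaling. It was at 358, 342 and 335 normalised CPM in the DMSO libraries and at 497, 507 and 523 in the AZD4573 libraries. Each AZD4573 library stood above each DMSO library, and the spread within either group was small beside the gap. The mean went from 345 ± 11.6 to 509 ± 12.7 (SD, n = 3), a log2 fold change of 0.56 (standard error, SE, 0.0419, edgeR adjusted p = 3.9e-08). Leaving out any 1 library kept the log2 fold change between 0.53 and 0.58, and mitochondrial scaling turned it to -0.18 (adjusted p = 0.00959 from edgeR). A second protein-coding gene, ENSG00000285171, shares 51.3% of the exon bases of IL2RG on the same strand, and RSEM divides shared reads between them. That gene was assigned 219 to 319 counts with DMSO and 587 to 653 with AZD4573, against 24665 to 31899 for IL2RG.

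IL2RB, the signalling chain that joins IL2RG in the IL-2 and IL-15 receptors, moved the other way. It was at 73.6, 74.5 and 75.3 normalised CPM with DMSO and at 54.0, 57.7 and 52.4 with AZD4573. The groups did not overlap. The log2 fold change was -0.44 (SE 0.0490, edgeR adjusted p = 2.0e-06), a fall of 1.36-fold.

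The 2 alpha chains lie side by side on chromosome 10, and of these IL15RA passed the test and IL2RA did not. IL2RA, the activation marker CD25, was at 9.79, 10.3 and 9.98 normalised CPM with DMSO and at 10.7, 9.19 and 10.1 with AZD4573. The groups overlapped fully, with a log2 fold change of -0.0050 (SE 0.0824, edgeR adjusted p = 0.959). IL15RA, which presents IL-15 to IL2RB and IL2RG, was at 12.1, 13.1 and 13.4 normalised CPM with DMSO and at 9.88, 10.0 and 9.47 with AZD4573. All of its AZD4573 libraries were below its DMSO libraries, and the log2 fold change was -0.39 (SE 0.0755, edgeR adjusted p = 0.00035), or 1.31-fold. An overlapping lncRNA on the strand of IL15RA, ENSG00000232807, was assigned 16 to 25 counts. Whether IL2RA and IL15RA differ from each other in their change was not tested.

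Of the chains that pair with IL2RG for IL-4, IL-7 and IL-21, IL4R did not pass the test by TMM, IL7R fell and IL21R rose, whereas by mitochondrial scaling all 3 were lower. IL4R, which also pairs with IL13RA1 for IL-13, was at 106, 103 and 105 normalised CPM with DMSO and at 101, 108 and 107 with AZD4573. The groups overlapped and their means differed by less than the spread, with a log2 fold change of 0.0033 (SE 0.0437, edgeR adjusted p = 0.949). An opposite-strand lncRNA that shares 329 exon bases with IL4R, ENSG00000274092, was assigned 33 to 66 counts. The neighbouring gene, IL21R, was at 68.2, 71.2 and 70.0 normalised CPM with DMSO and at 74.9, 99.1 and 92.3 with AZD4573. The groups did not overlap, but AZD4573 replicate 1 stood close to the DMSO libraries and apart from the other AZD4573 libraries. The log2 fold change of IL21R was 0.35 (SE 0.0791, edgeR adjusted p = 0.00132), 0.45 without AZD4573 replicate 1 and -0.40 by mitochondrial scaling. The exons of IL21R share 23.3% of their bases with IL21R-AS1 on the opposite strand, which was assigned 18 to 56 counts and which counting without strand cannot separate.

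IL7R, which naive and memory T cells need for survival, was the scarcest of the 10 and fell furthest. Its counts were 48, 43 and 41 with DMSO and 4, 8 and 7 with AZD4573, or 0.612, 0.587 and 0.557 normalised CPM against 0.0786, 0.140 and 0.115. The groups were far apart, although all 6 values are low. The log2 fold change was -2.36, with the widest error of the 10 genes (SE 0.382, edgeR adjusted p = 7.7e-05). IL7R passed the filter on low counts only through the DMSO libraries, where it is higher.

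The receptor chains outside the common gamma family all fell. IL6ST, the gp130 chain, was at 11.8, 13.2 and 12.0 normalised CPM with DMSO and at 3.34, 3.51 and 3.44 with AZD4573. The AZD4573 libraries agreed closely with each other and lay far below the DMSO libraries. The log2 fold change was -1.84 (SE 0.0913, edgeR adjusted p = 8.4e-10), or 3.59-fold, and 3.81% of genes tested lay at or below it. The processed pseudogene IL6STP1 on chromosome 17 had 0 counts in every library, as had an opposite-strand lncRNA, ENSG00000262211, that overlaps 6.61% of the exon bases of IL6ST.

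IL10RA was at 26.9, 28.8 and 27.4 normalised CPM with DMSO and at 16.1, 15.7 and 15.4 with AZD4573. The log2 fold change was -0.82 (SE 0.0595, edgeR adjusted p = 3.1e-08), or 1.76-fold. IL27RA was at 86.3, 82.0 and 81.9 normalised CPM with DMSO and at 51.0, 50.1 and 53.2 with AZD4573. Its log2 fold change was -0.70 (SE 0.0475, edgeR adjusted p = 1.6e-08), or 1.62-fold. For both genes the groups were widely separated, and no other annotated gene shares their exon bases.

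**Figure D1:**
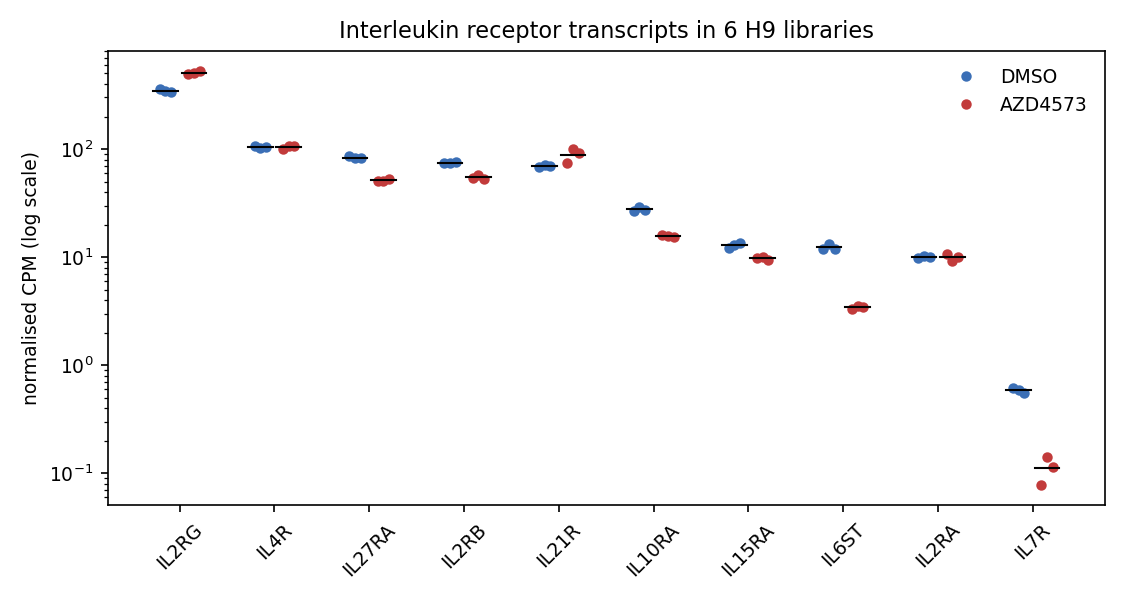
Normalised CPM (log scale) of the 10 receptor genes, ordered by their DMSO mean; each point is a library (blue, DMSO; red, AZD4573) and each black line the mean of 3. IL2RG rises from 345 to 509 (it is lower by mitochondrial scaling), IL4R and IL2RA overlap, and IL6ST falls from 12.3 to 3.43.

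For IL2RG and IL21R the sign depended on the scaling. Mitochondrial mRNAs took 3.04% to 3.22% of counts with DMSO and 4.67% to 4.98% with AZD4573, and with that scaling the median over all genes went from 0.03 to -0.71 in log2 fold change. By this scaling all 10 receptor genes had a negative log2 fold change and passed the test in edgeR. The share of all genes that did so was not computed, and their median was itself negative (-0.71). With a 1.5-fold change required, 8 receptor genes were called lower (53.4% of all genes). The 2 not called were IL2RG (-0.18) and IL21R (-0.40). IL2RA (-0.74) and IL4R (-0.74) lay close to the median of all genes, as they did by TMM. IL7R (-3.10), IL6ST (-2.58), IL10RA (-1.56), IL27RA (-1.44), IL2RB (-1.18) and IL15RA (-1.13) were below it by both scalings. Which scaling describes the amount of transcript per cell was not tested.

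**Figure D2:**
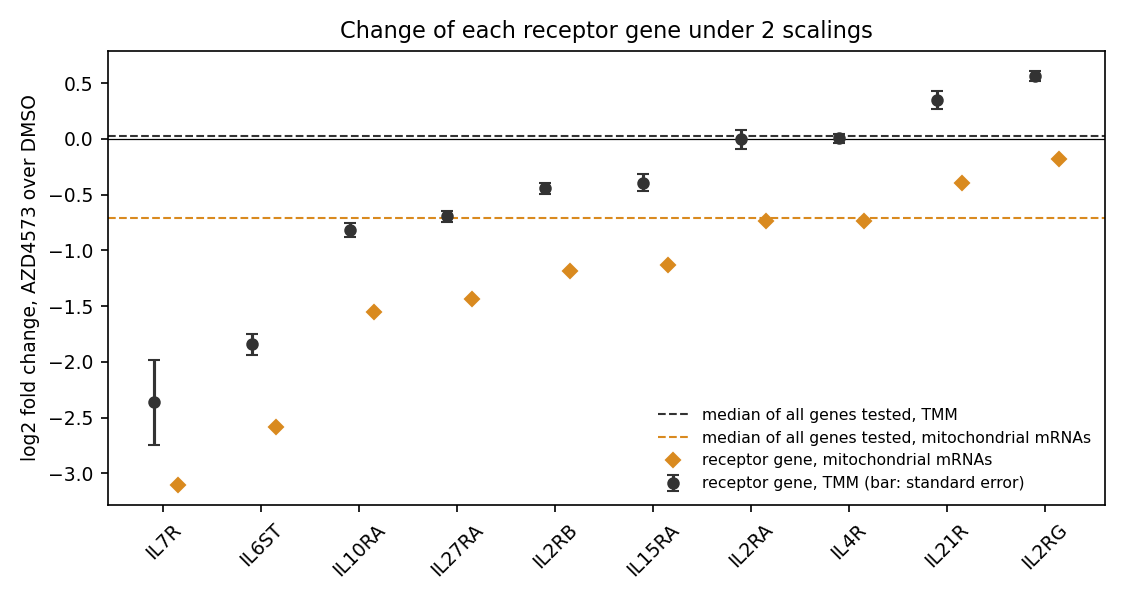
Log2 fold change (AZD4573 over DMSO, 3 libraries each) of the 10 receptor genes normalised by TMM (black, with standard error) and scaled to the mitochondrial mRNAs (orange); dashed lines mark the median of all genes tested. IL2RG goes from 0.56 to -0.18 and IL21R from 0.35 to -0.40, while IL6ST is at -1.84 and -2.58.

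The balance of chains that form 1 receptor was compared within each library, because such a ratio does not depend on the scaling between libraries. The 11 ratios were taken from the counts, and with 3 libraries against 3 a two-sided exact permutation test cannot give a p below 0.1 (0.122 after Benjamini-Hochberg adjustment over the 11). The groups did not overlap for 9 ratios, and each of these had this smallest p. For single genes the groups did not overlap in 77.8% of those tested, and the share over other pairs of genes was not computed. Against the common gamma chain, IL2RB, IL2RA, IL4R and IL7R stood lower with AZD4573. IL2RB stood at 0.206, 0.218 and 0.225 counts per IL2RG count with DMSO and at 0.109, 0.114 and 0.10 with AZD4573, a difference of -1.01 in the mean log2 ratio (-1.16 to -0.86 over pairs of libraries). IL4R stood at 0.297, 0.302 and 0.314 per IL2RG count with DMSO and at 0.202, 0.212 and 0.204 with AZD4573, a difference of -0.56 (-0.63 to -0.48). IL2RA per IL2RG differed by -0.57 (-0.74 to -0.34) and IL7R per IL2RG by -3.00 (-3.44 to -2.59). For IL21R per IL2RG the groups overlapped, with a difference of -0.23 (-0.47 to 0.03, exact permutation p = 0.2). IL4R and IL2RA, which did not pass the test by TMM, thus stood lower relative to their partner chain in every AZD4573 library than in any DMSO library. Ratios to IL2RG all carry its own change (log2 fold change 0.56 by TMM), so those of IL4R and IL2RA are not results separate from it.

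Other pairs differed in either direction. IL2RA per IL2RB went from 0.133, 0.139 and 0.133 with DMSO to 0.199, 0.159 and 0.193 with AZD4573, a difference of 0.44 in the mean log2 ratio (0.20 to 0.58). IL15RA per IL2RB overlapped between groups, with a difference of 0.05 (-0.036 to 0.16, exact permutation p = 0.3). IL10RA per count of its partner IL10RB went from 1.3, 1.69 and 1.60 with DMSO to 0.794, 0.830 and 0.744 with AZD4573, a difference of -0.95 (-1.19 to -0.65). These counts are not corrected for length, so the ratio does not say which of the chains is more abundant. IL10RB shares 21.6% of its exon bases with the readthrough gene IFNAR2-IL10RB, which was assigned 705 to 894 counts, and IL10RB itself did not pass the test (log2 fold change 0.12, adjusted p = 0.178 from edgeR), but did without DMSO replicate 1 (0.21, adjusted p = 0.0132 from edgeR).

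Both chains set against gp130 stood higher relative to it with AZD4573. IL27RA had 7.31, 6.23 and 6.82 counts per IL6ST count with DMSO and 15.3, 14.3 and 15.5 with AZD4573, a difference of 1.15 in the mean log2 ratio (0.97 to 1.31). IL6R, the IL-6 binding chain, differed by 0.90 per IL6ST count (0.36 to 1.56), although IL6R itself fell (log2 fold change -0.94, adjusted p = 0.00298 from edgeR). It had at most 105 counts in a library. IL13RA1, the partner of IL4R for IL-13, had 38 to 42 counts with DMSO and 6 to 17 with AZD4573, and its ratio to IL4R differed by -1.39 (-2.51 to -0.64).

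**Figure D3:**
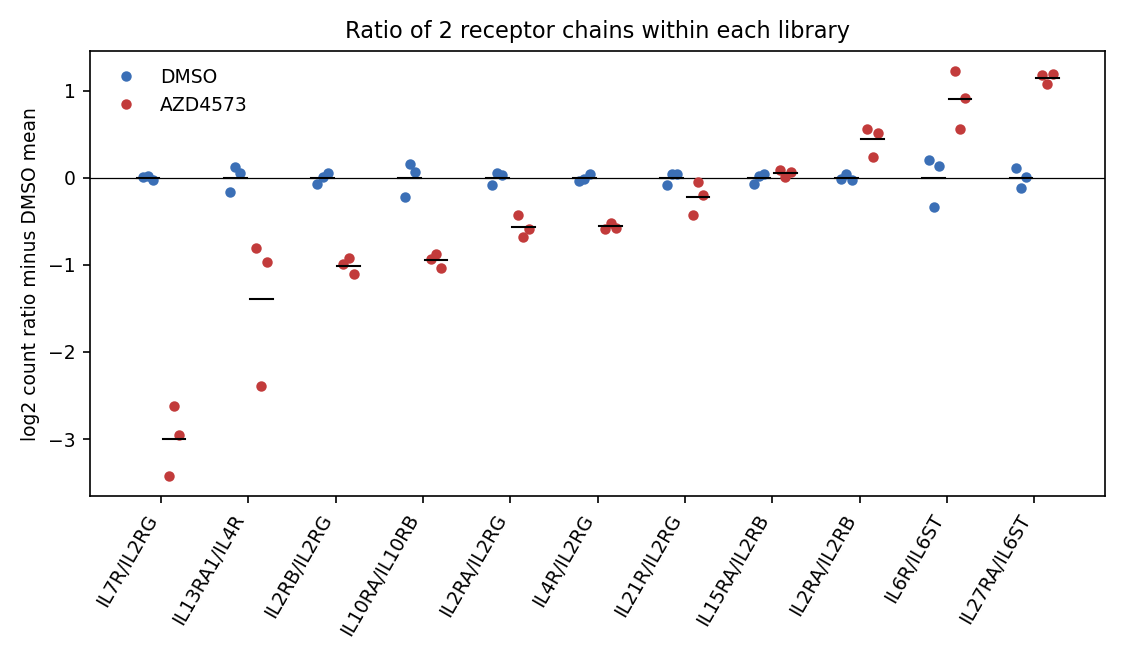
Log2 ratio of the counts of 2 receptor chains in each library, minus the DMSO mean of that ratio; points are libraries (blue, DMSO; red, AZD4573) and black lines means of 3. IL2RB per IL2RG lies 1.01 lower with AZD4573 (-1.01) and IL27RA per IL6ST 1.15 higher, while IL15RA per IL2RB and IL21R per IL2RG overlap.

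Levels of different genes were compared only per length, as counts per kilobase of merged exons scaled to the same sum over all genes of each library. With DMSO, IL2RG was highest at 506 ± 12.4 (SD, n = 3), followed by IL27RA at 113 ± 2.0, IL4R at 71.4 ± 0.272, IL21R at 51.4 ± 1.89 and IL2RB at 41.0 ± 0.962. IL15RA at 14.2 ± 0.916 and IL10RA at 12.6 ± 0.635 had ranges that overlapped, and IL2RA (10.2 ± 0.433), IL6ST (4.10 ± 0.301) and IL7R (0.390 ± 0.0160) came last. Every other pair of neighbours in this order was separated. With AZD4573 the order differed at 4 of the 10 places. IL4R (59.4 ± 1.57) came just before IL27RA (58.0 ± 1.44) and IL21R (54.1 ± 7.14), with ranges that overlapped from each to the next, and IL2RA (8.41 ± 0.713) came before IL10RA (5.92 ± 0.209) but overlapped IL15RA (8.97 ± 0.345). IL2RG remained first at 619 ± 7.91 and IL7R last at 0.0614 ± 0.0167. With the longest transcript as the length, IL4R came before IL27RA, and IL2RB before IL21R, in the DMSO libraries.

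The other genes of these pathways, listed from general knowledge of cytokine signalling, showed both directions. Of 42 other cytokine receptors 28 could be tested, and 14 fell and 9 rose (37.4% and 37.3% of all genes). At 1.5-fold or more 13 were lower and 6 higher (23.7% and 22.7% of all genes), with a median log2 fold change of -0.38 against 0.03 over all genes. Some, IL13RA1 among them, entered the test only through the group where they are higher. With at least 10 counts in every library, 10 were lower and 5 higher, against 3660 and 3246 of all 15247 genes tested by that filter. The largest falls among receptors of at least 5 CPM were those of interferon and IL-17 receptor chains. IFNGR1, the ligand-binding chain for interferon gamma, had a log2 fold change of -2.0, followed by IL17RA (-1.49), IFNAR1 (-1.18) and IFNAR2 (-1.03). EPOR, the erythropoietin receptor, fell further (-2.65) but lay just under that level at 4.79 CPM with DMSO, and was named after its values were seen. Rises were seen for IL17RE (3.47), which reached 5 CPM only with AZD4573, and IL11RA (1.11). IL9R, a further partner of IL2RG, was at 0.26 and the common beta chain CSF2RB at 0.13, and both were lower by mitochondrial scaling (-0.48 and -0.61). CSF2RB did not pass with library size only (0.028), without a filter (0.091) or without AZD4573 replicate 2 (0.12, adjusted p = 0.0616 from edgeR). IL11RA needs gp130 to signal, and it rose while IL6ST fell.

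Of 18 cytokines or cytokine subunits, which bind these or other receptors, 11 could be tested. Among the 11, 6 fell and 2 rose (37.4% and 37.3% of all genes). At 1.5-fold or more 5 were lower and 2 higher (23.7% and 22.7% of all genes). With at least 10 counts in every library, 3 were lower and 1 higher, against 3660 and 3246 of all 15247 genes tested by that filter. OSM, whose receptors contain gp130, went from 44.1 to 17.1 normalised CPM (log2 fold change -1.37, adjusted p = 1.7e-10 from edgeR). IL10, the ligand of IL10RA, went from 40.1 to 18.1 normalised CPM (-1.15, adjusted p = 2.1e-09 from edgeR). IL23A, which is not part of a ligand of the 10 receptors, was at -0.40. The 2 that rose, IL13 and IL11, were named after their values were seen and stayed at or under 1.07 normalised CPM on average. IL13 entered the test only through its AZD4573 counts (60, 62 and 57, against 4, 0 and 3 with DMSO). IL2, IL4 and TSLP, also named after their values were seen, fell. IL2 went from 2.58 to 1.06 normalised CPM (log2 fold change -1.29, adjusted p = 1.65e-05 from edgeR). IL4 and TSLP entered the test only through their DMSO counts. IL6 and IL9 had 0 counts in every library.

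All 11 JAK and STAT genes, the kinases and factors that carry the receptors' signal, were tested. Of these 3 fell and 6 rose (37.4% and 37.3% of all genes). At 1.5-fold or more only STAT4 was lower (log2 fold change -0.91) and 0 were higher (23.7% and 22.7% of all genes). JAK2, a kinase of several cytokine receptors, fell less (-0.49). STAT2 (0.56), TYK2 (0.56), JAK1 (0.49) and STAT5B (0.49) had the largest rises by TMM and were all lower by mitochondrial scaling (-0.18, -0.18, -0.25 and -0.25). JAK3, the kinase bound to IL2RG, went from 79.0 to 80.7 normalised CPM and did not pass the test (adjusted p = 0.696 from edgeR).

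Among 22 targets and feedback regulators of these receptors 21 were tested, and 10 fell and 10 rose (37.4% and 37.3% of all genes). At 1.5-fold or more 6 were lower and 5 higher, near the share of all genes (23.7% and 22.7%). BCL2L1, which encodes the survival factor BCL-xL, went from 824 to 2128 normalised CPM (log2 fold change 1.37). CISH, a feedback inhibitor induced through STAT5, was at 1.07, the cyclin CCND2 at 1.07 and BCL2 at 0.94, and these 4 stayed positive by mitochondrial scaling (0.20 to 0.63). The largest falls were those of PTPN2, a phosphatase of JAK kinases (-1.37), the kinases PIM1 (-1.19) and PIM2 (-0.87), and SOCS2 (-0.95).

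**Figure D4:**
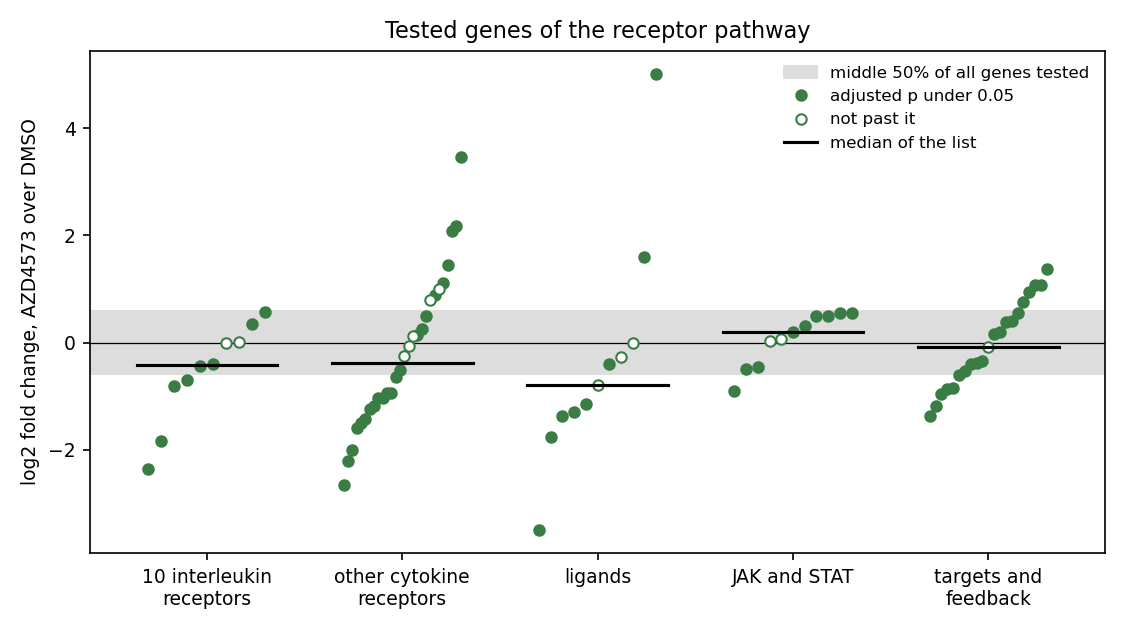
Log2 fold change (AZD4573 over DMSO, TMM) of each tested gene of the 10 interleukin receptors and of 4 related lists; filled points passed an adjusted p under 0.05, black lines are list medians, and the grey band holds the middle 50% of all genes tested (-0.59 to 0.59). The medians are -0.42 for the 10 receptors, -0.38 for other receptors, -0.80 for ligands, 0.19 for JAK and STAT genes and -0.085 for targets and feedback.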

How the data were processed

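Poly(A) RNA of H9 cells was measured by bulk RNA-seq in 3 DMSO and 3 AZD4573 libraries, grouped by their labels. Per the labels and supplemental methods, the authors trimmed reads with cutadapt 2.3, aligned them to GRCh38 with STAR 2.7.8a and obtained expected counts of each gene by RSEM 1.3.3, run with defaults that ignore strand. The deposited expected counts are whole numbers without normalization, so rounding changed nothing. The labels describe poly(A) selection and the supplemental methods rRNA depletion. The 5 reporter sequences (0 counts) were left out.

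Genes passing edgeR's low-count filter (minimum count 10) were normalised by TMM and compared by quasi-likelihood in edgeR 4.0.16 (R 4.3.3), p adjusted by Benjamini-Hochberg, as checked on simulated data. Normalised CPM are counts over TMM-adjusted library sizes, and errors are SD over libraries. Chain ratios were compared by exact permutation (SciPy 1.17.1). Exons came from GENCODE 44 for 61369 genes. Alternatives were other scalings, filters, fold thresholds and lengths, each library left out, a replicate block and DESeq2 1.42.0. From each related list, the 4 largest rises and 4 largest falls with an adjusted p under 0.05 and at least 5 CPM were named. The genes and lists were chosen with earlier results of these data known. No library repeated another of its group (chi-square over its degrees of freedom at least 5.51). Some items are not reported here.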

Additional observations from a re-analysis of the deposited data

How the results depend on the processing

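Of 129 alternative values for the log2 fold changes of the 10 receptor genes, 115 had the same direction and stayed on the same side of the adjusted p of 0.05. Outside the mitochondrial scaling, the 10 reversals were those of IL4R and IL2RA. IL4R was at -0.10 with library size only, where it passed the test as lower (adjusted p = 0.0378 from edgeR), -0.039 without a filter and -0.015 with DESeq2, and IL2RA at 0.032 with at least 10 counts in every library. With each library left out, IL4R ranged from -0.019 to 0.029 and IL2RA from -0.060 to 0.048.

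Scaled to the mitochondrial mRNAs, the sign reversed for IL2RG (-0.18), IL21R (-0.40), IL4R (-0.74), IL9R (-0.48), CSF2RB (-0.61), STAT2 (-0.18), TYK2 (-0.18), JAK1 (-0.25), STAT5B (-0.25) and IL10RB (-0.61), while the median of all genes went from 0.03 to -0.71. The same scaling gave 9433 lower and 1769 higher genes in all (4191 and 4012 by TMM), 8 lower receptor genes, 3 higher other receptors, 9 lower and 1 higher ligands, 5 lower JAK and STAT genes, and 11 lower and 1 higher targets.

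With a 2-fold change required, stricter by construction, 2450 genes were lower and 2643 higher, with 2 receptor genes lower (IL7R and IL6ST), 0 JAK and STAT genes lower, and 2 targets lower and 3 higher. With no fold threshold, 6606 genes were lower and 6596 higher, with 2 receptor genes higher, 3 lower and 6 higher JAK and STAT genes, and 10 lower and 10 higher targets. With at least 10 counts in every library, 1 receptor gene (IL2RG) was called higher, 3 ligands lower and 1 higher, and 2 JAK and STAT genes higher. This setting tested 15247 genes, of which 3660 were lower and 3246 higher. IL2RG moved from 0.56 to 0.60 by this setting, and the cause was not tested. With library size only, 2 JAK and STAT genes were lower; the cause was not tested. With each library left out, between 0 and 2 JAK and STAT genes were called higher, 2 of them without DMSO replicate 3.

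The 88 alternative values for chain ratios and the 8 for the order of levels stayed within the spread or within 1.5 times. Replicate numbers do not pair the libraries (correlations of deviations -0.0208, 0.0417 and 0.0316), and with the number as a replicate block 4162 genes were lower and 3926 higher, with 4 receptor genes lower and 0 higher, and no call named here changed. IL7R could not be tested with at least 10 counts in every library.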
